A study of Mus musculus with 2 samples.

Results

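The genes described here are 10 non-collagen genes of cartilage, out of 32285 genes measured: the transcription factors Sox9, Sox5 and Sox6, the matrix genes Acan, Hapln1, Comp and Chad, and Cnmd, Scrg1 and Susd5. They were taken as a named list, chosen with earlier results of these data known. The series measured single-cell transcriptomes of the mouse aorta in 2 samples, MSC_ITGB3 and HFD, both from ApoE-/- mice 20 weeks old, which lack apolipoprotein E and develop atherosclerosis. The series text states that the survey covered HFD-fed mice given MSC_ITGB3 or not, so the diet is shared. Neither the number of animals behind a sample nor the meaning of MSC_ITGB3 is given in the labels. The counts formed 2 libraries, called library 2 and library 1, which nothing ties to a sample. They are therefore set side by side, neither has a group, and no comparison of MSC_ITGB3 with HFD was made. There are no replicates, so no test across samples exists and bracketed 95% intervals cover counting error only.

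Cartilage cells are specified by SOX9, which binds enhancers of cartilage genes together with SOX5 and SOX6. The matrix they lay down is built on type II collagen fibrils and on aggrecan, a proteoglycan that binds hyaluronan and is held there by link protein. In the atherosclerotic wall of ApoE-/- mice, cells that carry cartilage genes are known from advanced plaques, and smooth muscle cells are a known source of them.

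Deep barcodes, with 3000 or more UMIs (unique molecular identifiers, 1 per captured transcript) and at most 20% mitochondrial UMIs, numbered 6540 in library 2 and 6332 in library 1. Their median depths were 6031 UMIs in library 2 and 8746 UMIs in library 1. A barcode was called Col2a1-gated when Col2a1, the type II collagen chain, made up at least 50 of every 10000 of its UMIs. This gate took 470 barcodes of library 2, or 7.19% (6.57 to 7.84), and 57 of library 1, or 0.900% (0.683 to 1.17). The other gates used marker genes. No gate at all, that of Col2a1 included, was passed by 66.4% of deep barcodes of library 2 and 46.7% of those of library 1. Cell types are ordered below among the 8 gated types that held 50 or more barcodes in both libraries. Free RNA was read from barcodes of 10 to 100 UMIs, where Col2a1 stood at 2198 CPM (UMIs of a gene summed over a set of barcodes, scaled so that every set totals 1000000) in library 2 and 164 CPM in library 1. No Col2a1-gated barcode of library 1 shared its sequence with a deep barcode of library 2. Among Col2a1-gated barcodes, 13 in library 2 and 1 in library 1 passed another gate too, and no doublet was removed. Depth was uneven within the gate. In library 2, 70 barcodes at 20000 UMIs or more held 58.7% of its UMIs, and in library 1, 18 such barcodes held 77.4%.

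These barcodes were also described by genes outside the member list. The lists were chosen with earlier results of these data known, and the gate itself selects for a cartilage collagen. The collagen count is therefore a description and no test of the label. Of 6 other cartilage collagen genes, 6 were at least 2-fold higher in Col2a1-gated than in other deep barcodes of both libraries, where 8.28% of all genes with 20 or more UMIs were in library 2 and 10.2% in library 1. Col2a1 itself made the gate and was left out of this count. Summed marker sets of 10 other cell types stood at 0.111 to 0.409 times their free RNA level in the gated barcodes of library 2, and those of 11 at 0 to 0.431 times in library 1. The exception in library 2 was the cardiomyocyte set, at 80.6 CPM against 37.0 CPM in low-count barcodes. Ryr2, a calcium channel gene of that set, gave 78.7 of those 80.6 CPM, and 2 of the 5 cardiomyocyte markers were at 0.

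All 10 genes were higher in Col2a1-gated barcodes than in the other deep barcodes, in both libraries and by at least 2-fold. The share of all genes that much higher was 8.28% in library 2 and 10.2% in library 1. The median log2 ratio of the 10 genes was 3.72 in library 2 and 4.17 in library 1, against -0.20 in library 2 and -0.35 in library 1 for all genes. They differed widely among themselves. Hapln1, Cnmd and Scrg1 had the highest ratios, whereas Sox5 and Susd5 were detected at sizeable levels in several other cell types. The other deep barcodes, with 92.2% of all deep UMIs in library 2 and 98.8% in library 1, still held 14.5% of Scrg1, 9.74% of Hapln1 and 8.07% of Cnmd UMIs in library 2. In library 1 they held 51.7% of Scrg1, 31.6% of Hapln1 and 39.3% of Cnmd UMIs. The gate itself selects barcodes for a cartilage gene, so these ratios describe what accompanies Col2a1.

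**Figure D1:**
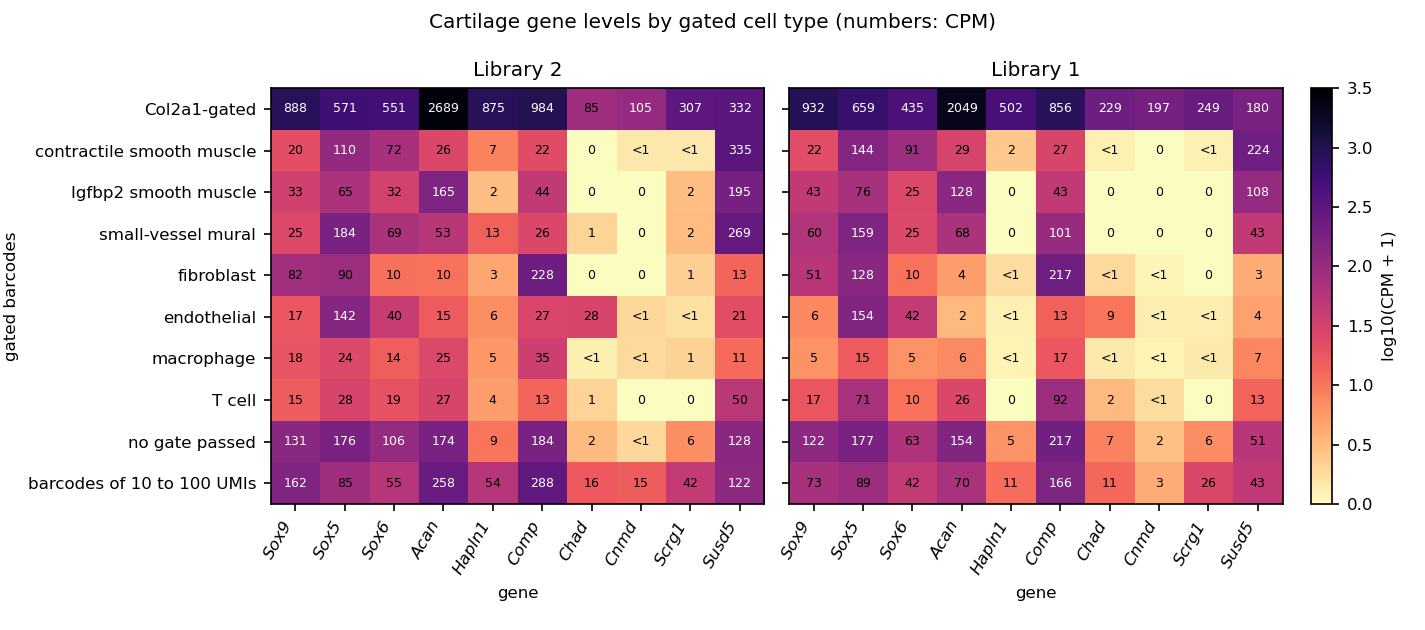
Level of each of the 10 genes (columns) in gated barcodes, barcodes that passed no gate and barcodes of 10 to 100 UMIs (rows), as CPM in the cells and log10(CPM + 1) in colour, in library 2 (left) and library 1 (right). Gated types under 50 barcodes in either library are not drawn. Among the rows drawn, the Col2a1-gated row at the top is darkest for 9 genes, and Susd5 is as dark in contractile smooth muscle.

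RefSeq promoters of GRCm38.p6, 250 bases before to 50 after a start, matched 7 of the 10 genes with 12 promoters, of which 6 were of Sox6. The Sox core ACAAT was searched on both strands, and so was the longer ACAATGG, which contains it. Of 32544 RefSeq promoters of that length, 30.8% held the core and 3.68% the longer form. The core was present in the Sox5 window matched (in the longer form, at -154) and in that of Hapln1 (at -249). It was also present in 3 of the 6 of Sox6, and was not found in these windows of Acan, Chad, Cnmd or Susd5. The Sox5 window lies inside the gene, far from its 5′ end at 144781977. The Hapln1 window also lies inside its gene, whose 5′ end is at 89539796. So do the 3 Sox6 windows with the core, and the window at the 5′ end of Sox6 had none. Which start these cells used was not tested. Shown 5′ to 3′ are the windows matched to Sox5, to Hapln1 and Acan, 2 matrix genes that followed Col2a1 differently, and to Susd5, which contractile cells also held. Capitals mark the core.
Sox5, chr6:143947057-143947356, minus strand: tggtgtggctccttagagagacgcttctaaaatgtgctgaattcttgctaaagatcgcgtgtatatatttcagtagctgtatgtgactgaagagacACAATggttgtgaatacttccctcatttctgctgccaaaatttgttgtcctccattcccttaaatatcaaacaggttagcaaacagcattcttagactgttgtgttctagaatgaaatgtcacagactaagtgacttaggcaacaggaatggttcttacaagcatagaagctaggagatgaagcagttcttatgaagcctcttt
Hapln1, chr13:89540386-89540685, plus strand: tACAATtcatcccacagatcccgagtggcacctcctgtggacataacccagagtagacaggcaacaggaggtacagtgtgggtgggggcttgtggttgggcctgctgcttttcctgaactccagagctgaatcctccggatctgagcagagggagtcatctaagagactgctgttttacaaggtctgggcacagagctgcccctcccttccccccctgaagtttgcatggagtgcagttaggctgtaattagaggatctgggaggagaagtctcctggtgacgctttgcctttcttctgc
Acan, chr7:79052976-79053275, plus strand: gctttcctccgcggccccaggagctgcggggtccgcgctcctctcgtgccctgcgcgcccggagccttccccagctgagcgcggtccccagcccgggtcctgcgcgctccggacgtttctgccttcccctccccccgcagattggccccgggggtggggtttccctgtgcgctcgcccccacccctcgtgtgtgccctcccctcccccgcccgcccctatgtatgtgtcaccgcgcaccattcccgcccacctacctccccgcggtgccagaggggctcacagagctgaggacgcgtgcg
Susd5, chr9:114057104-114057403, plus strand: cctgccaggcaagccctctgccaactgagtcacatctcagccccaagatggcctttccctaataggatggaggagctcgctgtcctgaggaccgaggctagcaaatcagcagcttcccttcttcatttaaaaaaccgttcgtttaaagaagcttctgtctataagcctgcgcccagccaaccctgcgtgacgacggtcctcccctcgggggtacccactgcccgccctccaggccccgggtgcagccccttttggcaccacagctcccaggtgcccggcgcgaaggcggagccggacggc

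Sox9 (ENSMUSG00000000567, chromosome 11, 112782224 to 112787760 of GRCm38, the assembly mm10), the factor that cartilage formation requires, had 888 CPM (862 to 916) in Col2a1-gated barcodes and 103 CPM in other deep barcodes of library 2. Library 1 held 932 CPM (871 to 996) of it in Col2a1-gated barcodes and 69.5 CPM in the others. The ratios were 8.62 (8.28 to 8.97) in library 2 and 13.4 (12.5 to 14.4) in library 1. Next in order came fibroblasts in library 2, at 82.4 CPM, and small-vessel mural cells in library 1, at 59.6 CPM, where the interval overlapped that of fibroblasts at 51.0 CPM. Both lay below free RNA, which stood at 162 CPM in library 2 and 73.3 CPM in library 1.

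Sox5 (ENSMUSG00000041540, chromosome 6, 143828425 to 144781977), whose protein lacks an activation domain and acts as a partner of SOX9, had 571 CPM (550 to 593) in Col2a1-gated and 151 CPM in other deep barcodes of library 2, a ratio of 3.78. Library 1 gave 659 CPM (608 to 713) in Col2a1-gated and 148 CPM in other barcodes, a ratio of 4.45. Small-vessel mural cells followed with 184 CPM in library 2 and 159 CPM in library 1, and endothelial cells had 142 CPM in library 2 and 154 CPM in library 1. Free RNA was lower, at 85.0 CPM in library 2 and 89.2 CPM in library 1, and macrophages held only 24.2 CPM in library 2 and 15.4 CPM in library 1. Sox5 was therefore found across vascular cell types as well as in the gated barcodes.

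Sox6 (ENSMUSG00000051910, chromosome 7, 115470872 to 116038796), the close relative of Sox5, had 551 CPM (530 to 572) in Col2a1-gated and 85.6 CPM in other deep barcodes of library 2, a ratio of 6.43. In library 1 it had 435 CPM (394 to 480) in Col2a1-gated and 50.8 CPM in other barcodes, a ratio of 8.56. Contractile smooth muscle followed, at 71.6 CPM in library 2 (54.5 CPM in free RNA) and 91.2 CPM in library 1 (42.0 CPM in free RNA). Fibroblasts had only 10.1 CPM in library 2 and 9.91 CPM in library 1. Schwann-gated barcodes had 146 CPM (102 to 202) in library 2, from 40 barcodes, and 121 CPM (88.3 to 162) in library 1, from 64. Antisense genes overlap Sox6, and 6 genes overlap Sox5, of which Sox5it lies on the same strand, so reads between these genes could be divided uncertainly.

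Each of the 3 Sox factors was frequent in Col2a1-gated barcodes, and part of these barcodes held all 3. With every barcode thinned to 3000 UMIs, a UMI of each of the 3 was present in 38.9% (34.5 to 43.5) of Col2a1-gated barcodes of library 2 and 24.6% (14.1 to 37.8) of those of library 1. Unthinned, the shares were 59.1% in library 2 and 47.4% in library 1. In macrophages, which should lack this combination, the thinned shares were 0.800% in library 2 and 0% in library 1, where 0 of 411 had an exact interval up to 0.894%. Median depths before thinning were 4464 UMIs in gated barcodes and 5588 in macrophages of library 2, and 5552 in gated barcodes and 7597 in macrophages of library 1. A thinned Sox9 UMI was present in 83.0% of Col2a1-gated barcodes and 7.73% of macrophages in library 2, and in 87.7% and 2.43% of the same types in library 1; unthinned, these were 88.9% and 11.7% in library 2 and 100% and 4.87% in library 1. At the thinned depth 4.68% of gated barcodes in library 2 and 7.02% in library 1 had no UMI of any of the 3, against 2.98% and 0% of the unthinned barcodes of these libraries. Taken singly, the thinned gated shares were 67.7% for Sox5 and 60.9% for Sox6 in library 2. In library 1 they were 57.9% for Sox5 and 40.4% for Sox6. Whether the 3 met more often than their single shares would give was not tested.

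Of 10 other Sox genes measured, 0 were 2-fold higher in Col2a1-gated than in other deep barcodes. Of all genes, 8.28% were in library 2 and 10.2% in library 1, so 0 of 10 is near that share. At least 2-fold lower were 7 of these 10 in library 2, against 22.6% of all genes, and 8 in library 1, against 33.9% of all genes. The median log2 ratios were -0.99 in library 2 and -0.98 in library 1. The interval lay below 1 for 6 of the 7 in library 2 and for 4 of the 8 in library 1, where Sox2, Sox8, Sox10 and Sox11 had 0 or 1 gated UMIs. Sox17 and Sox18, which act in endothelium, had 3 and 20 UMIs among 470 gated barcodes of library 2, at 0.628 and 4.19 CPM against 5.08 and 11.6 CPM in other deep barcodes. In library 1 Sox17 had 0 UMIs in gated barcodes and 13.2 CPM elsewhere.

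Acan (ENSMUSG00000030607, chromosome 7, 79053483 to 79115099) encodes aggrecan, the large proteoglycan of cartilage. It had 2689 CPM (2643 to 2736) in Col2a1-gated and 131 CPM in other deep barcodes of library 2, a ratio of 20.5 (19.9 to 21.1). Library 1 gave 2049 CPM (1959 to 2143) in Col2a1-gated and 82.7 CPM in other barcodes, a ratio of 24.8 (23.5 to 26.1). At equal depth a UMI was found in 97.0% of gated barcodes and 8.80% of macrophages in library 2 (97.7% and 14.1% unthinned), and in 87.7% of gated barcodes and 2.19% of macrophages in library 1 (98.2% and 3.89% unthinned). The next gated type was smooth muscle marked by Igfbp2, with 165 CPM (141 to 192) in library 2 and 128 CPM (110 to 148) in library 1, while contractile smooth muscle had 26.1 CPM in library 2 and 28.7 CPM in library 1. Of Igfbp2 barcodes, 57.4% in library 2 and 48.2% in library 1 had an Acan UMI unthinned. The 5 richest held 55.8% of 172 UMIs in library 2 and 50.5% of 188 in library 1. Free RNA stood at 258 CPM in library 2 and 70.2 CPM in library 1, so the Igfbp2 level was below free RNA in library 2 and 1.82 times the free RNA level in library 1.

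Hapln1 (ENSMUSG00000021613, chromosome 13, 89539796 to 89611652) encodes link protein, which ties aggrecan to hyaluronan. It was far more restricted: 875 CPM (848 to 902) in Col2a1-gated and 7.92 CPM in other deep barcodes of library 2, a ratio of 110.4 (100.1 to 122). Library 1 had 502 CPM (458 to 550) in Col2a1-gated and 2.81 CPM in other barcodes, a ratio of 179 (152 to 211). No other gated type of 50 or more barcodes exceeded 13.1 CPM, and free RNA stood at 53.9 CPM in library 2 and 10.6 CPM in library 1. Igfbp2 smooth muscle, which came next for Acan, had 2 Hapln1 UMIs in library 2 and 0 in library 1. The ratio over other deep barcodes of library 2 ran from 65.2, with each barcode weighted equally, to 183, with only barcodes of 2 or more Hapln1 UMIs counted.

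Comp (ENSMUSG00000031849, chromosome 8, 70373558 to 70382066) encodes cartilage oligomeric matrix protein, a pentameric thrombospondin that binds collagen fibrils and is also made in tendon and the vessel wall. It had 984 CPM (956 to 1012) in Col2a1-gated and 154 CPM in other deep barcodes of library 2, a ratio of 6.40. In library 1 it had 856 CPM (797 to 917) in Col2a1-gated and 133 CPM in other deep barcodes, a ratio of 6.43. Fibroblasts came next, with 228 CPM (214 to 244) in library 2 and 217 CPM (206 to 228) in library 1. Free RNA stood at 288 CPM in library 2, above the fibroblast level, and at 166 CPM in library 1, below it. The ratio over other deep barcodes was 4.05 in library 2 with the Col2a1 gate at 100 per 10000 and 10.1 in library 1 with the gate at 20. Comp was unevenly spread inside the gate. At equal depth a UMI was seen in 37.4% of gated barcodes and 12.3% of macrophages in library 2 (50.4% and 18.4% unthinned), and in 63.2% of gated barcodes and 7.30% of macrophages in library 1 (82.5% and 11.2% unthinned). The median gated barcode had 0.120 UMIs per 10000 in library 2, where the highest had 162, and 4.82 in library 1, where the highest had 130.4. The T cell level of library 1, 91.5 CPM, came mostly from 1 barcode that held 100 of the 122 UMIs.

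Chad (ENSMUSG00000039084, chromosome 11, 94565047 to 94569127) encodes chondroadherin, a leucine-rich repeat protein that binds cells through integrins and binds collagen. It had 84.5 CPM (76.5 to 93.2) in Col2a1-gated and 3.21 CPM in other deep barcodes of library 2, a ratio of 26.3 (22.0 to 31.5). In library 1 it had 229 CPM (199 to 261) in Col2a1-gated and 5.97 CPM in other deep barcodes, a ratio of 38.3 (32.4 to 45.1). At equal depth a UMI was seen in 12.8% of gated barcodes and 0% of macrophages in library 2 (20.6% and 0.267% unthinned), and in 22.8% of gated barcodes and 0.243% of macrophages in library 1 (42.1% and 0.487% unthinned). The ratio over other deep barcodes was 17.1 in library 2 with the Col2a1 gate at 100 per 10000 and 23.7 in library 1 with the gate at 20. Next in order came endothelial barcodes, at 27.5 CPM (22.2 to 33.8) in library 2 and 9.18 CPM (7.62 to 11.0) in library 1, while fibroblasts had 0 UMIs in library 2 and 6 in library 1. The endothelial UMIs were concentrated: 10 of 313 barcodes of library 2 held 62 of 91, and 15 of 903 barcodes of library 1 held 72 of 121. The 10 barcodes of library 2 held 6 Col2a1 and 2 Acan UMIs in all, and the 15 of library 1 held 1 Col2a1 and 0 Acan UMIs. Free RNA had 15.6 CPM of Chad in library 2 and 11.5 CPM in library 1, so the endothelial level was 1.77 times free RNA in library 2 and 0.800 times in library 1. Chad lies opposite to Acsf2 on the other strand, and the counting's strand setting was not given in the sources used here.

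Cnmd (ENSMUSG00000022025, chromosome 14, 79637690 to 79662170) encodes chondromodulin, a membrane protein of cartilage whose released domain inhibits vessel growth. It had 105 CPM (95.9 to 114) in Col2a1-gated and 0.773 CPM in other deep barcodes of library 2, a ratio of 136 (99.5 to 189). Library 1 had 197 CPM (169 to 227) in Col2a1-gated and 1.54 CPM in other barcodes, a ratio of 127 (101 to 162). Contractile smooth muscle had 1 Cnmd UMI in 233 barcodes of library 2 and 0 in 734 of library 1. The ratio in library 2 ran from 58.6, with barcodes of 1000 or more UMIs, to 476, with only barcodes of 2 or more Cnmd UMIs counted. At equal depth a UMI was seen in 18.5% of gated barcodes and 0.533% of macrophages in library 2 (26.0% and 0.800% unthinned), and in 22.8% of gated barcodes and 0% of macrophages in library 1 (33.3% and 0.243% unthinned). The 5 barcodes richest in Cnmd held 26.3% of its gated UMIs in library 2 and 83.8% in library 1.

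Scrg1 (ENSMUSG00000031610, chromosome 8, 57455923 to 57477585) encodes a small secreted protein first described in scrapie-infected brain and also found in cartilage. It had 307 CPM (292 to 323) in Col2a1-gated and 4.38 CPM in other deep barcodes of library 2, a ratio of 70.3 (61.4 to 80.7). For library 1 the levels were 249 CPM (218 to 283) in Col2a1-gated and 3.23 CPM in other barcodes, a ratio of 77.1 (64.2 to 92.5). The ratio in library 2 ran from 46.5, with the Col2a1 gate at 100 per 10000, to 122, with only barcodes of 2 or more Scrg1 UMIs counted. Of the other gated types with 50 or more barcodes in both libraries, none had more than 5 UMIs of Scrg1. Free RNA, at 42.2 CPM in library 2 and 26.1 CPM in library 1, stood well above all of them. Some smaller gated types held more. Chil1-gated barcodes had 111 CPM (72.0 to 164; 25 UMIs in 11 barcodes) in library 1 and 0 UMIs in library 2. Neutrophils had 61.8 CPM (24.8 to 127; 7 UMIs in 24 barcodes) in library 2. In library 1 neutrophils had 20.9 CPM (9.01 to 41.1; 8 UMIs in 89 barcodes).

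Susd5 (ENSMUSG00000086596, chromosome 9, 114057140 to 114098728), a sushi-domain gene with a hyaluronan-binding link domain, followed another pattern. It had 332 CPM (316 to 349) in Col2a1-gated and 335 CPM (312 to 359) in contractile smooth muscle barcodes of library 2, a ratio of 0.991 (0.909 to 1.08). In library 1 it had 180 CPM (154 to 209) in Col2a1-gated and 223 CPM (214 to 234) in contractile barcodes, a ratio of 0.805 (0.684 to 0.942). In library 2, Igfbp2 smooth muscle had 195 CPM, small-vessel mural cells 269 CPM, fibroblasts 12.6 CPM and endothelial cells 21.2 CPM. In library 1, Igfbp2 smooth muscle had 108 CPM, small-vessel mural cells 43.1 CPM, fibroblasts 3.06 CPM and endothelial cells 3.72 CPM. Free RNA stood at 122 CPM in library 2 and 43.3 CPM in library 1. Susd5 was thus high in gated barcodes and in contractile cells alike.

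**Figure D2:**
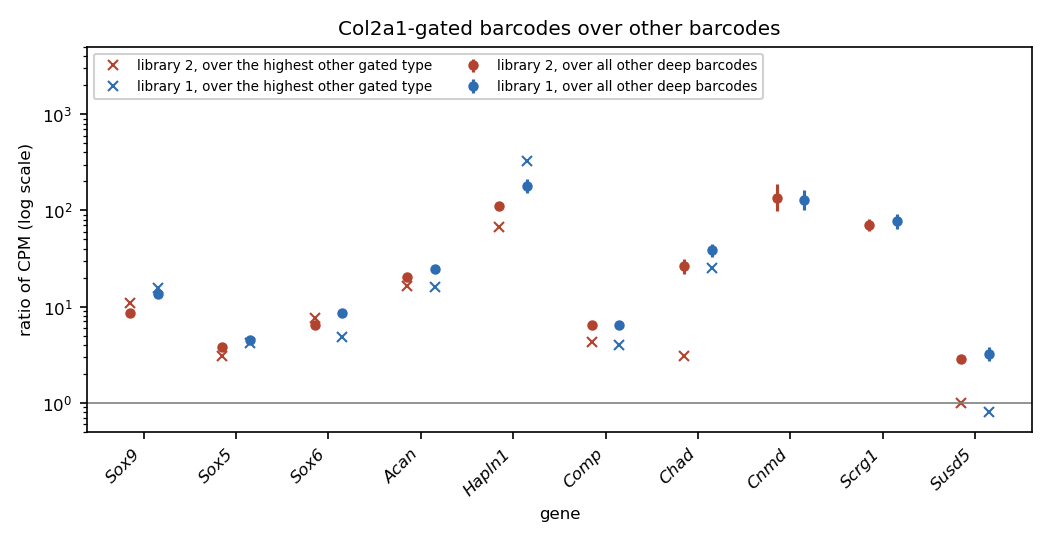
Ratio of CPM (log scale) in Col2a1-gated barcodes to all other deep barcodes (circles, with exact 95% intervals) and to the highest of the other gated types with 50 or more barcodes (crosses, drawn where that type had more than 3 UMIs), for library 2 (red) and library 1 (blue). Circles run from 2.83 for Susd5 to 179 for Hapln1, and the Susd5 crosses lie at or below 1.

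Measured against free RNA, the same 10 genes were at least 2-fold higher in Col2a1-gated barcodes of both libraries, where 12.2% of all genes were in library 2 and 12.3% in library 1. In contractile smooth muscle Susd5 passed that mark in library 2 (10.6% of all genes did), and Sox6 and Susd5 in library 1 (12% did). In Igfbp2 smooth muscle 0 passed it in library 2 (3.91% of genes) and Susd5 in library 1 (6.77%). In small-vessel mural cells Sox5 and Susd5 passed it in library 2 (7.82%) and 0 in library 1 (7.56%). Of the 10 genes 0 passed it in library 2 in fibroblasts (10.1% of all genes did), endothelial cells (19.4%), macrophages (17.1%) and T cells (19.4%). Likewise 0 passed it in library 1 in fibroblasts (11.1%), endothelial cells (17.7%), macrophages (16.3%) and T cells (20.9%).

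Barcodes that passed no gate made up 64.5% of deep UMIs in library 2 and 45.4% in library 1. These held 51.4% of deep Sox9 UMIs, 54.6% of Comp and 34.1% of Acan in library 2, and 69.6% of Sox9, 69.4% of Comp and 65.9% of Acan in library 1. For Hapln1 the shares were only 7.75% in library 2 and 26.5% in library 1. The shares of Sox9, Comp and Acan thus lay below the share of all UMIs in library 2 and above it in library 1. In library 2 these barcodes had 131 CPM of Sox9 (162 CPM in free RNA) and 174 CPM of Acan (258 CPM in free RNA). In library 1 they had 122 CPM of Sox9 (73.3 CPM in free RNA) and 154 CPM of Acan (70.2 CPM in free RNA).

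**Figure D3:**
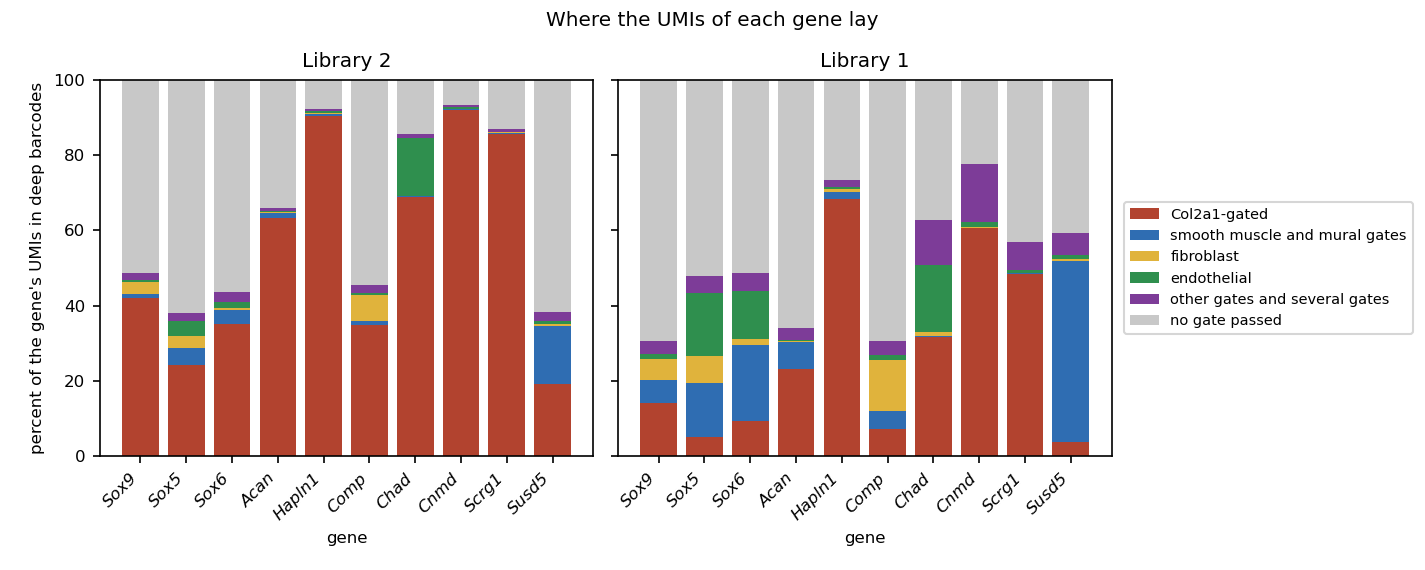
Percent of each gene's UMIs in deep barcodes that came from each set of gates (stacked bars), in library 2 (left) and library 1 (right). Col2a1-gated barcodes gave 90.3% of Hapln1 UMIs in library 2 and 68.4% in library 1, but 24.1% of Sox5 UMIs in library 2 and 5.11% in library 1.

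The genes did not follow Col2a1 equally across all deep barcodes. Where Col2a1 made up 5 to under 10 of every 10000 UMIs, well short of the gate, Sox9 stood at 32.3% of its gated level in library 2 (287 CPM in 245 barcodes) and 41.3% in library 1 (385 CPM in 64 barcodes). Acan stood at 21.3% in library 2 (572 CPM) and 33.2% in library 1 (680 CPM). Hapln1 stood at only 0.725% in library 2 (10 UMIs) and 2.68% in library 1 (11 UMIs), and Cnmd had 3 UMIs in library 2 and 1 in library 1. Scrg1 was at 4.53% in library 2 and 19.1% in library 1. Sox9 and Acan were thus present in barcodes with little Col2a1 in which Hapln1 and Cnmd were scarcely detected. In barcodes with no Col2a1 UMI, Sox9 stood at 7.21% of its gated level in library 2 and 5.18% in library 1. Free RNA held 162 CPM of Sox9 and 258 CPM of Acan in library 2, and 73.3 and 70.2 CPM in library 1. In library 2 its Col2a1 level, 2198 CPM, also lay above this range. How much of these levels came from free RNA was not tested.

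From 10 to under 50 Col2a1 UMIs per 10000, Sox9 stood at 49.5% of its gated level and Hapln1 at 9.48% in the 434 barcodes of library 2, and Sox9 at 49.6% and Hapln1 at 13.0% in the 92 of library 1. Within the gate, Hapln1 in library 2 had 356 CPM at 50 to under 100 Col2a1 UMIs per 10000, 859 CPM at 100 to under 200 and 1318 CPM at 400 or more. Sox9 had 706, 927 and 873 CPM in the same ranges. Library 1 did not rise steadily, with Hapln1 at 249 CPM at 50 to under 100, 748 CPM at 100 to under 200 and 631 CPM at 200 to under 400, and Sox9 at 1071, 720 and 975 CPM in those ranges. Just inside the gate, at 50 to under 60, 42 barcodes of library 2 had 1697 CPM of Acan and 240 CPM of Hapln1, and 4 barcodes of library 1 had 2462 CPM and 383 CPM of these genes. Just outside, at 40 to under 50, 61 barcodes of library 2 had 1133 CPM of Acan and 182 CPM of Hapln1, and 6 barcodes of library 1 had 860 CPM and 58.8 CPM of them.

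**Figure D4:**
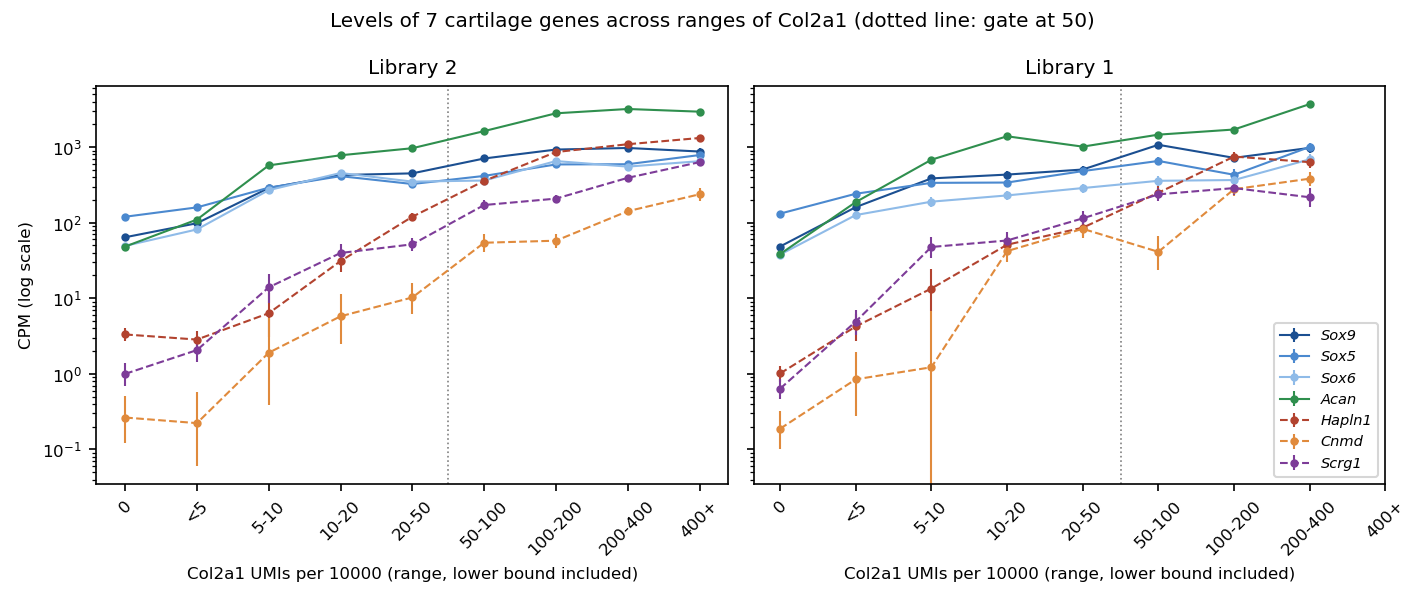
Level in CPM (log scale) of Sox9, Sox5, Sox6 and Acan (solid) and of Hapln1, Cnmd and Scrg1 (dashed) across ranges of Col2a1 per 10000 UMIs in deep barcodes of library 2 (left) and library 1 (right), with exact 95% intervals. Library 1 had no barcode at 400 or more. In library 2 Sox9 stands at 287 CPM in the range from 5 and at 706 CPM in the range from 50, and Hapln1 at 6.34 and 356 CPM.

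Barcodes gated by Chil1, below the Col2a1 gate and only 7 in library 2 and 11 in library 1, carried Sox9 at 507 CPM (395 to 642) in library 2 and 543 CPM (451 to 648) in library 1. They had 0 Chad and 1 Cnmd UMIs in library 2. In library 1 they had 276 CPM of Chad (211 to 353; 62 UMIs), where Col2a1-gated barcodes had 229 CPM, and 200.1 CPM of Cnmd (146 to 268; 45 UMIs), where Col2a1-gated barcodes had 197 CPM.

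Over all deep barcodes, 8 of the 10 genes were at least 1.5-fold higher in library 2 than in library 1, against 11.4% of all genes higher and 8.53% lower. The median log2 ratio of the 10 was 1.07, and that of all genes was 0.04. Hapln1 had 75.1 CPM in library 2 and 8.77 CPM in library 1, a ratio of 8.56 (7.90 to 9.28). Scrg1 had a ratio of 4.52, Acan 3.10, Susd5 2.34, Cnmd 2.28, Sox6 2.20, Sox9 2.05 and Comp 1.54. With every barcode thinned to 3000 UMIs Cnmd stood at 4.04. Sox5 (1.19) and Chad (1.10) fell short of 1.5. Library 2 also held a 7.98 times larger share of Col2a1-gated barcodes, and in such sums more cells of a type and more RNA per cell cannot be told apart. Free RNA moved the same way for several genes, with Hapln1 at 53.9 CPM in library 2 and 10.6 CPM in library 1.

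Within Col2a1-gated barcodes fewer of the 10 genes were higher in library 2 than over all deep barcodes, but Chad lay further from 1. Of all genes, a larger share passed 1.5-fold in either direction within the gate than over all deep barcodes. Only Hapln1, with a ratio of library 2 to library 1 of 1.74 (1.58 to 1.92), and Susd5, with 1.85 (1.57 to 2.18), were at least 1.5-fold higher, 2 of 10 against 21.3% of all genes. Chad, at 0.369 (0.312 to 0.438), and Cnmd, at 0.532 (0.449 to 0.634), were lower by as much, 2 of 10 against 10.2% of all genes. Sox9 stood at 0.953 (0.886 to 1.03), Sox5 at 0.867 and Sox6 at 1.27. The median log2 ratio was 0.25 for the 10 genes and 0.11 for all.

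These ratios within the gate rested on few barcodes of library 1. The 5 barcodes richest in each gene held 11.4% (Sox9) to 37.6% (Chad) of that gene's gated UMIs in library 2 and 41.0% (Scrg1) to 83.8% (Cnmd) in library 1. With the richest 10% of gated barcodes left out for each gene, 47 in library 2 and 6 in library 1, Hapln1 stood at 1.91, Susd5 at 1.97, Acan at 1.81 in place of 1.31 and Chad at 0.240 in place of 0.369, while Cnmd, at 0.724, was no longer 1.5-fold lower. Leaving out 5 in each library took 1.06% of the gated barcodes of library 2 but 8.77% of those of library 1, which by itself raises the ratios, and Chad then stood at 0.690, short of 1.5-fold lower, and Cnmd at 1.96. With each barcode weighted equally, Acan was 1.75, Sox6 1.53 and Susd5 2.32, whereas Hapln1 was 1.21. With every barcode thinned to 3000 UMIs, Acan was 1.89, Sox6 1.80 and Susd5 2.33, whereas Hapln1 was 1.48 and Cnmd 0.779. Comp stood below 1 with the Col2a1 gate at 20 per 10000 (0.692) and at 100 (0.734). The median gated barcode had 18.9 Acan UMIs per 10000 in library 2 and 9.93 in library 1, and 2.57 Susd5 UMIs in library 2 and 0 in library 1. Susd5 was at least 1.5-fold higher under each of these alternatives. Across 3 ranges of Col2a1 its ratio was 1.20 (0.900 to 1.63) at 50 to under 100, 2.22 (1.70 to 2.95) at 100 to under 200, and 1.53 (1.14 to 2.10) at 200 or more. The higher Susd5 level in library 2 was not particular to gated barcodes. The Susd5 ratio was 2.11 in other deep barcodes and 2.82 in free RNA. In macrophages it was 1.68, in Igfbp2 smooth muscle 1.81, in T cells 3.93 and in fibroblasts 4.11. Endothelial cells stood at 5.70 and small-vessel mural cells at 6.24, and contractile smooth muscle was also higher in library 2. In macrophages, T cells, fibroblasts and endothelial cells Susd5 lay below free RNA in both libraries (122 CPM in library 2 and 43.3 CPM in library 1). How far these ratios follow free RNA was not tested.

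**Figure D5:**
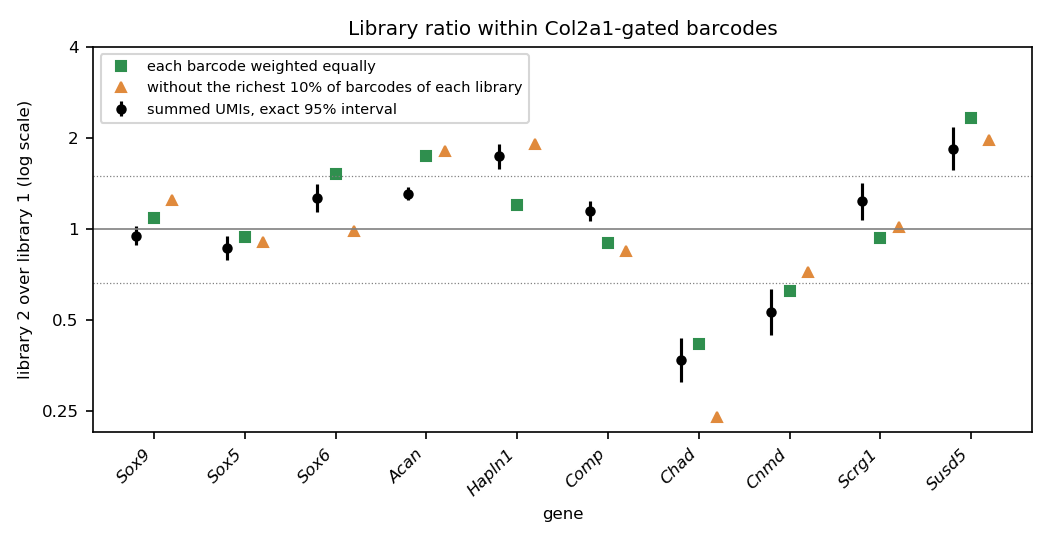
Ratio of library 2 to library 1 within Col2a1-gated barcodes (log scale) for each gene, from summed UMIs with exact 95% intervals (circles), with each barcode weighted equally (squares), and without the richest 10% of barcodes of each library (triangles). Dotted lines mark 1.5-fold. Susd5 lies above 1.5 and Chad below 1 in all 3, whereas Sox9, Sox6, Comp and Scrg1 have values on both sides of 1.

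Most of the other cartilage genes were also higher in Col2a1-gated barcodes. Of 24 listed, 23 were in the matrix, and 18 of 23 with 20 or more UMIs in library 2 and 18 of 21 in library 1 were at least 2-fold higher there, against 8.28% of all genes in library 2 and 10.2% in library 1. At least 2-fold lower were 1 in library 2 and 3 in library 1, against 22.6% and 33.9% of all genes in these libraries. The interval lay below 1 for the 1 in library 2 and for 1 of the 3 in library 1. Prg4, which encodes lubricin, differed between the libraries, at 196 CPM in gated and 392 CPM in other barcodes of library 2, and 715 CPM in gated and 233 CPM in other barcodes of library 1, and was named after its values were seen. Clec3a, a cartilage lectin, had 169 UMIs in gated and 9 in other deep barcodes of library 2, and 7 in gated and 0 in other barcodes of library 1. Ucma, a small secreted cartilage protein, had 28.5 CPM in gated and 0.316 CPM in other barcodes of library 2, and 146 CPM in gated and 0.335 CPM in other barcodes of library 1. Cilp, of the cartilage intermediate layer, was lower, at 1.46 CPM in gated and 11.0 CPM in other barcodes of library 2. Of 8 genes of hypertrophic cartilage and bone, 6 in library 2 and 8 in library 1 were 2-fold higher, and for 6 in each library the interval also lay above 1, among them Ibsp (bone sialoprotein) at 1349 CPM in gated and 26.2 CPM in other barcodes of library 2 and 316 CPM in gated and 5.46 CPM in other barcodes of library 1. Bglap (osteocalcin) had 204 gated UMIs in library 2 and 1 in library 1, where Sp7, a bone factor, had 2. Their ratios in library 1, 2.18 for Bglap and 4.86 for Sp7, had intervals that began at 0.0537 and at 0.566, and so included values below 1.

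Likeness was measured as Pearson's r of log2(CPM + 10) over 18 points, 8 gated types of library 2 and 10 of library 1 with 50 or more barcodes in that library, among 6812 genes. The points share libraries and depth, and 2 of them are Col2a1-gated, so r is a description. Hapln1 was most like Col11a2 (0.989), Col9a1 (0.988) and Fzd9 (0.988). Sox9 was most like Tiam2 (0.962), Acan most like Itga10 (0.949), Chad most like Trpv4 (0.955) and Scrg1 most like Lbhd2 (0.977). Cnmd had the highest values of any member, with Spink5 (0.995), Krt16 (0.995) and Bpifb1 (0.99). In gated barcodes of library 2 Spink5 had 126 CPM, Krt16 60.3 CPM and Bpifb1 55.7 CPM. Those of library 1 had 212 CPM of Spink5, 160 CPM of Krt16 and 147 CPM of Bpifb1. No marker set used for the gates held these genes, and none was of epithelial cells. The comparison of marker sets with free RNA above therefore did not cover them. Which cells they came from was not tested. Susd5 was most like Cspg4 (0.963), Pde4dip (0.958) and Ryr2 (0.944). Among the members, Hapln1 and Cnmd had r = 0.97 and Sox9 and Comp 0.91, whereas Susd5 and Comp had 0.25.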

How the data were processed

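Per the labels' protocols, aortic single cells were captured with the Chromium 3′ v3 kit. The authors deposited 1 unfiltered matrix of raw UMI counts per gene and barcode, which per the file headers came from Cell Ranger 6.0.1. Seurat, bcl2fastq and the build mm10 stand in the submitters' processing notes. Its annotation and strand setting were not given in the sources used here. Barcode suffixes separate library 2 (124266676 UMIs) from library 1 (110257209 UMIs).

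Deep barcodes held 3000 or more UMIs and at most 20% mitochondrial UMIs. The Col2a1 gate, at 50 per 10000, took precedence over all others. The Chil1 gate took 10 per 10000 and 5 UMIs. Other gates needed a marker set at 4 times its share in barcodes of 10 to 100 UMIs, with 5 UMIs and 3 markers (1 for Igfbp2, which took precedence over contractile smooth muscle). A barcode passing more was put in a class of its own. UMIs were summed and given as CPM. Ratios used genes with 20 or more UMIs over both sides. Intervals are exact Poisson, conditional binomial or Clopper-Pearson, at 95%, and cover counting error only. Thinning to 3000 UMIs left out no deep barcode. Median depths of 6031 and 8746 UMIs limit what a single barcode shows. TMM factors came from edgeR 4.0.16, and the rest was computed with Python 3.11.15, numpy 2.4.6 and scipy 1.17.1. Gene positions are from GENCODE vM21, in which 32158 of 32285 identifiers were found. The scripts were tested on simulated data.

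The members and lists were chosen with earlier results of these data known. The genes named are the 10 members, for likeness up to 3 genes a member, and from each list at most the 4 highest and 2 lowest ratios, besides Sox2, Sox8, Sox10, Sox11, Sox18, Sp7, Prg4 and, in the marker check, Ryr2, which were named after their values were seen. Alternatives changed the depth, mitochondrial, Col2a1 and gate limits, barcodes passing several gates, the filter, the free RNA range, scaling and thinning.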

Additional observations from a re-analysis of the deposited data

How the results depend on the processing

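All 10 members stayed at least 2-fold higher in Col2a1-gated than in other deep barcodes in each library under the alternatives run, but the ratios behind this count moved by over 1.5 times for Hapln1, Comp, Chad, Cnmd and Scrg1 in library 2 and for Comp and Chad in library 1. The count of member and cell type pairs above free RNA, 13 in each library, was 12 or 13. The share of Col2a1-gated barcodes was 6.28 to 8.77 times larger in library 2, and 7.98 in the analysis reported. The count of members at least 1.5-fold higher in library 2 within the gate, 2, was 1 with the Col2a1 gate at 100 per 10000. It was 3 with thinning to 3000 UMIs (Acan, Sox6 and Susd5), 3 with barcodes weighted equally (Acan, Sox6 and Susd5) and 3 without the richest 10% of gated barcodes (Acan, Hapln1 and Susd5). It was 5 without the 5 barcodes richest in each member, and Cnmd then turned to 1.96. That last alternative leaves out a larger share of library 1 and so raises ratios of library 2 to library 1 by its own construction. Both trimmings, the equal weighting of barcodes, the split of barcodes that passed no gate and the ranges of Col2a1 were chosen after seeing the data. Over all deep barcodes the count was 7 with TMM factors, which shifted ratios by -0.06 on the log2 scale (-0.05 within the gate), and 8 otherwise in the analysis reported. Without the filter on low counts, 7404 genes in place of 2412 were at least 1.5-fold higher in library 2 within the gate and 2810 in place of 1153 lower. Over all deep barcodes these were 4656 in place of 2119 and 3923 in place of 1592. Genes at least 2-fold higher in gated barcodes then numbered 2904 in place of 1410 in library 2 and 2176 in place of 1759 in library 1. The 57 gated barcodes of library 1 limit every ratio between libraries. No paired analysis was possible because each sample has 1 library and no test was made.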
